A study of Mus musculus with 9 samples.

Results

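The high-affinity IgE receptor and the enzymes and adaptors that act next to it were described as transcripts in bone marrow-derived mast cells (BMMCs). The 10 genes were chosen by symbol: the receptor subunits Fcer1a, Ms4a2 and Fcer1g, the kinases Lyn, Fyn and Syk, the adaptors Lat, Lat2 and Gab2, and the phospholipase Plcg1. All 10 were found among the 47643 gene rows of the count table, and all 10 were among the 11560 genes whose median CPM (counts scaled to a common library total) over the 9 libraries was above 1. BMMCs are mast cells grown from C57BL/6 mouse bone marrow for weeks in medium conditioned by WEHI-3 cells, a source of IL-3. The 3 groups had 3 libraries each: Control (untreated), IgE+BSA (cells loaded with DNP-specific IgE and challenged with DNP-BSA, the antigen that cross-links it) and IgE+BSA+Luteolin (the same challenge with luteolin, a plant flavone). Whether luteolin was given before or after the challenge of the sequenced cells is not clear from the sources used here. The labels give luteolin at 10 uM and a time of 24 h, in a protocol text shared by all 9 samples. They do not say whether replicates came from separate cultures or animals, so p-values measure the spread between these libraries, which may be technical.

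Mast cells bind IgE through a receptor made of an alpha chain, which holds IgE, a beta chain and a pair of gamma chains. Antigen brings receptors together, LYN phosphorylates the motifs on the beta and gamma tails, and SYK docks there and phosphorylates the scaffolds LAT and LAT2. PLCG1 binds LAT and starts the calcium signal. A branch through FYN and GAB2 feeds phosphoinositide 3-kinase. These steps run through phosphorylation of proteins already present, which RNA counts do not measure.

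The receptor subunits are encoded on chromosomes 1 and 19. In GRCm38, Fcer1a spans 173221284-173227214 and Fcer1g 171229572-171234365 on chromosome 1, both on the minus strand and 1986919 bases apart, and Ms4a2 spans 11615523-11623719 on the minus strand of chromosome 19. Because the transcripts of all 3 subunits moved in the same direction with luteolin, the 250 bases before each start site are shown here, from RefSeq on GRCm38.p6, 5′ to 3′ on the gene's strand. The windows are chr1:173227230-173227479, chr19:11623720-11623969 and chr1:171234350-171234599 in the order printed, all on the minus strand. Capitals mark 6-base matches, on either strand, to GATA-factor letters (AGATAA, also with a final G, and each of these also with a T in first place), to a PU-box (the letters GAGGAA) or to an E-box (the palindrome CACGTG, and the version of it read as CATGTG).
Fcer1a: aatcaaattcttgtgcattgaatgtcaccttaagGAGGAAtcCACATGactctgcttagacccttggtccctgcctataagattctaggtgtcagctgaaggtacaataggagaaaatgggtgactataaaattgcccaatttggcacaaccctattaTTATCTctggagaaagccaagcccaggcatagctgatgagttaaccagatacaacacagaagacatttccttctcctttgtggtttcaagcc
Ms4a2: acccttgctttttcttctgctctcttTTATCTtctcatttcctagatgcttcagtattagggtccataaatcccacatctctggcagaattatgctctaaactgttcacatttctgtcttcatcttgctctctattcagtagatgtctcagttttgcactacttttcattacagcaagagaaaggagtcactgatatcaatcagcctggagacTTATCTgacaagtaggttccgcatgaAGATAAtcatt
Fcer1g: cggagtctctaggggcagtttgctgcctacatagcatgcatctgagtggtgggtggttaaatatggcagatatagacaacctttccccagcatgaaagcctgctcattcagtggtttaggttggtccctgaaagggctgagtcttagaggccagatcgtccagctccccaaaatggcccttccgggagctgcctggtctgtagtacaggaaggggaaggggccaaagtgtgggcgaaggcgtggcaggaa
The Fcer1a window held 1 match of each kind, the GATA letters beginning 92 bases before the start site, and the Ms4a2 window held 3 GATA matches, beginning 224, 37 and 11 bases before it. The Fcer1g window held none of these letters. GATA letters occurred in 26.5% of all 32851 promoter windows of that length, the PU-box in 23.3% and the E-boxes in 17.6%, so a match is a description of the window and not a binding site.

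Depth ranged from 9515004 counts in Control replicate 2 to 24605689 in IgE+BSA+Luteolin replicate 2, and 3 counts corresponded to 0.122 to 0.315 CPM. Fyn, the lowest of the 10 genes, still had 475 counts or more in each library. All 11 mast cell markers were above 1 CPM in each group, with Kit at 2177 ± 381 CPM in Control (SD, n = 3). The T cell markers Cd3e and Cd8a and the B cell marker Ms4a1 were at 0 counts in all 9 libraries. Other markers of these cells had reads: by group, Cd79b averaged 2.49 to 2.95 CPM, Cd79a 0.21 to 0.36 and Cd3g up to 0.27. The macrophage markers Adgre1 and Lyz2 averaged 204 to 247 and 95.4 to 102 CPM. Control replicate 1 stood apart from the other Control libraries, with a chi-square per degree of freedom of 75.4 and 120 against replicates 2 and 3, which differed from each other by 5.81. The 6 neutrophil markers summed to 190 CPM in Control replicate 1, to 6.96 and 5.64 in Control replicates 2 and 3, to 125 to 136 in IgE+BSA and to 146 to 172 in IgE+BSA+Luteolin. The mast cell markers summed to 81087 CPM in Control replicate 1 and to 54051 and 55102 CPM in replicates 2 and 3. The eosinophil markers summed to 37.4 CPM in Control replicate 1 and to 13.0 and 10.1 CPM in replicates 2 and 3. The 4 basophil markers summed to 1879 CPM in Control replicate 1 and to 1717 and 1653 CPM in replicates 2 and 3. That sum is mostly Prss34 (610 to 759 CPM over the Control libraries) and Cd200r3 (688 to 1044 CPM). Mcpt8, another of the 4, ran from 18.7 to 432 CPM over the Control libraries. It was at 292 to 330 CPM in IgE+BSA and 328 to 368 CPM with luteolin. Calls against Control are therefore given with and without Control replicate 1. In bulk RNA, fewer cells of a type and less RNA per cell cannot be told apart.

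Levels per kilobase of merged exon placed the receptor subunits far above the signalling genes. Fcer1a averaged 4838 ± 212 CPM per kb in IgE+BSA (SD, n = 3), Ms4a2 638 and Fcer1g 477, while Lat2 averaged 141, Lat 90.6, Gab2 59.3, Lyn 40.2, Plcg1 39.7, Syk 16.6 and Fyn 8.26. In IgE+BSA neighbours in this order did not overlap between libraries, except Lyn and Plcg1. In Control, Ms4a2 overlapped Fcer1g, and Gab2, Plcg1 and Lyn overlapped each other in turn, and in IgE+BSA+Luteolin Gab2 overlapped Plcg1. The order of the lower genes depended on the length used: per kilobase of the longest transcript, Syk averaged 29.0 and Lat2 216 in IgE+BSA, and Plcg1, at 61.0, lay above Lyn at 47.3 and overlapped Gab2 at 59.3. Fcer1a, Ms4a2, Fcer1g, Lat2 and Lat kept places 1 to 5, and Syk and Fyn the last, on either length in all 3 groups. By CPM, not divided by length, Fcer1a ranked 8 of 11560 genes over all 9 libraries, Ms4a2 38 and Fcer1g 320, while Fyn ranked 4972. Of the Src family kinases that act on the receptor, Fyn stood at 0.186 to 0.232 of the level of Lyn per length in the 9 libraries.

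**Figure D1:**
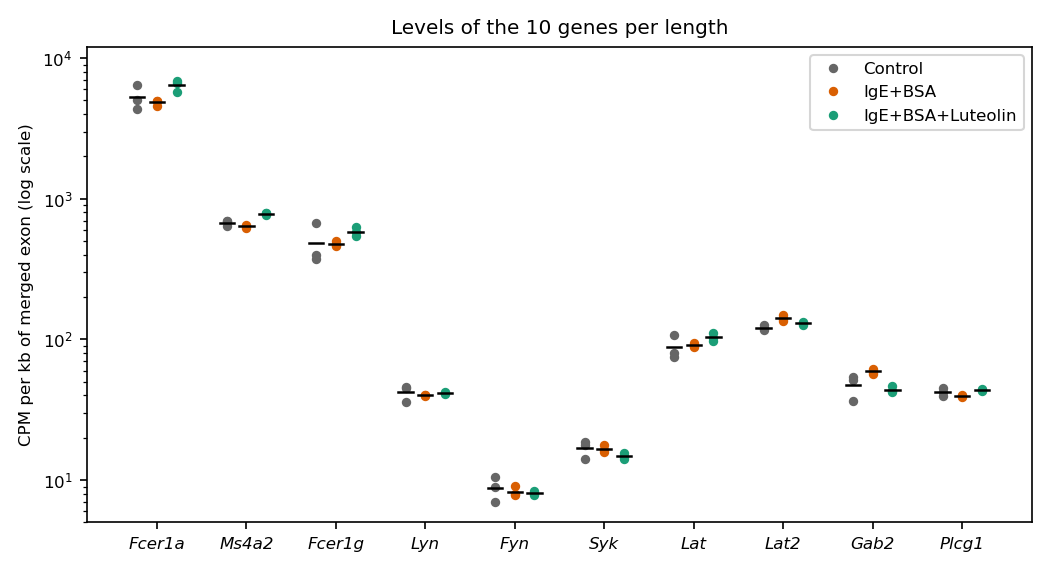
Level of each gene as CPM per kb of merged exon on a log axis, 1 point per library and a bar at the group mean (n = 3). Fcer1a sits highest in each group and Fyn lowest, and the 3 groups lie close together for each gene compared with the distance between genes.

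The comparison of IgE+BSA+Luteolin with IgE+BSA asks what luteolin changed in challenged cells. The 3 receptor subunits, Lat and Plcg1 were higher with luteolin, and Gab2 and Syk were lower, by up to 1.33-fold upward and to 0.744 and 0.889 of the IgE+BSA level downward. Lyn, Fyn and Lat2 did not pass the test. Thus 7 of the 10 genes were called, 5 higher and 2 lower, where 40.0% of all genes tested were called, 18.1% higher and 21.9% lower. The libraries of the groups did not overlap for 9 of the 10 genes, 6 above and 3 below IgE+BSA, which held for 50.3% of all genes, 24.2% above and 26.2% below. Among all genes called, 2097 were higher and 2527 lower, which became 3856 and 1767 when only library size was used as the scaling and 3267 and 2019 when upper quartiles set it. Library size alone moved the median log2 fold change of all genes from 0.02 to 0.13. Relative to the median of all genes no value of the 10 genes differed by more than 0.0011 between the 4 scalings tried. A change of scaling shifts all genes by nearly the same amount, so these relative values could hardly differ.

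**Figure D2:**
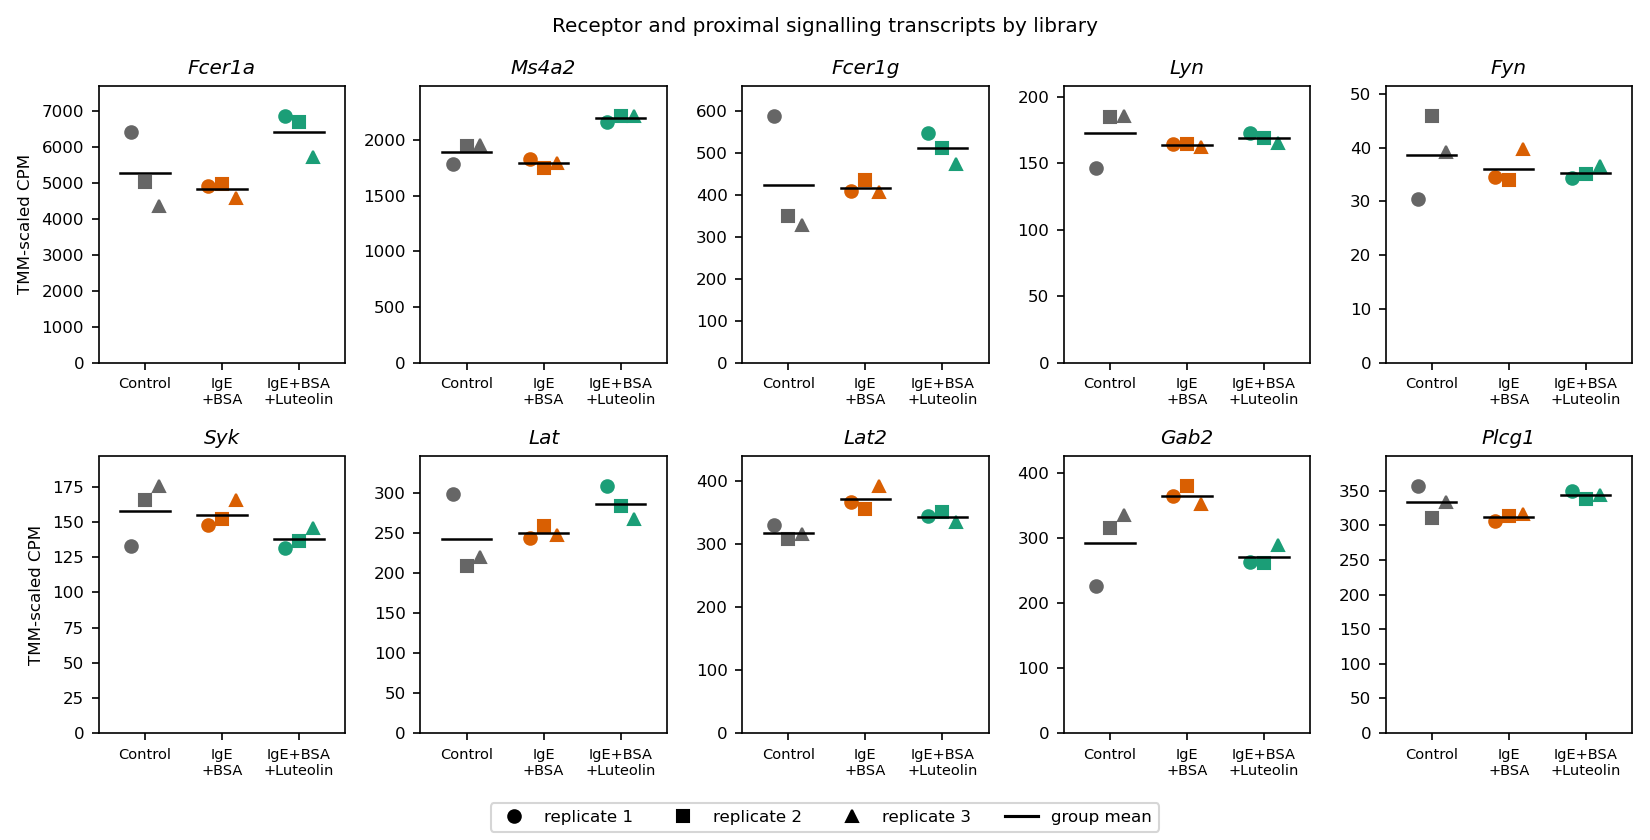
CPM of each of the 10 genes (axis from 0) in each library, scaled by the trimmed mean of M-values (TMM), with replicates as symbols and a bar at the group mean. Control replicate 1 sits away from the other 2 Control libraries for Fcer1a, Fcer1g, Lyn, Syk, Lat and Gab2, and the IgE+BSA and IgE+BSA+Luteolin libraries separate for all genes but Fyn.

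Fcer1a, the chain that binds IgE, was at 4920.4, 4978 and 4587 CPM in IgE+BSA and at 6883, 6691 and 5722 CPM with luteolin. Each luteolin library was above each IgE+BSA library, a log2 fold change of 0.42 (SE 0.06, edgeR adjusted p = 8.97e-05). In Control it was at 6431, 5032 and 4364 CPM, so that replicate 1 lay among the luteolin libraries and the other replicates near IgE+BSA. Ms4a2, the beta chain that amplifies the signal, was at 1837, 1749.8 and 1801 CPM in IgE+BSA and at 2170.2, 2220.4 and 2223 CPM with luteolin. Its log2 fold change was 0.30 (SE 0.05, edgeR adjusted p = 0.000157), and the luteolin libraries also lay above all 3 Control libraries, at 1789, 1947 and 1958 CPM. Fcer1g, the gamma chain shared with other activating Fc receptors, was at 409, 434 and 406 CPM in IgE+BSA and at 547, 510.1 and 472 CPM with luteolin. The groups did not overlap, with a log2 fold change of 0.29 (SE 0.06, edgeR adjusted p = 0.00116), and the Control libraries lay outside both groups, replicate 1 above them at 588 CPM and replicates 2 and 3 below them at 350.0 and 327 CPM.

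The proportions of the subunit transcripts were compared per length, since a receptor needs all of its chains. In these terms, Ms4a2 stood at 0.132, 0.125 and 0.139 of Fcer1a in IgE+BSA and at 0.112, 0.118 and 0.138 with luteolin. Fcer1g stood at 0.0950, 0.0997 and 0.101 of Fcer1a in IgE+BSA and at 0.0908, 0.0871 and 0.0942 with luteolin. The Ms4a2 ratios overlapped between the groups and the Fcer1g ratios did not, with 0.0950 and 0.0942 the nearest values. In Control the Ms4a2 ratios were 0.0987, 0.137 and 0.159 and the Fcer1g ratios 0.104, 0.0794 and 0.0857, each a wider range than in the other groups. These ratios are descriptions, with no test.

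Among the kinases, Syk, which docks on the phosphorylated receptor, was at 148, 152 and 166 CPM in IgE+BSA and at 131, 137 and 146 CPM with luteolin. All luteolin libraries were below all IgE+BSA libraries, and the log2 fold change was -0.17 (SE 0.06, edgeR adjusted p = 0.038), but with library size alone as the scaling it was -0.06 (adjusted p = 0.488) and with upper-quartile factors -0.09 (adjusted p = 0.227). Without the filter on low counts it was -0.15 (edgeR adjusted p = 0.0784), no longer called. Lyn, the first kinase on the receptor, was at 164.5, 164.4 and 162 CPM in IgE+BSA and at 172, 169 and 165 CPM with luteolin. These did not overlap, but the log2 fold change of 0.05 had a 95% interval from -0.06 to 0.16 and an edgeR adjusted p of 0.503, with 0.16 and an adjusted p of 0.0166 under library size alone. Fyn, the Src kinase of the GAB2 branch, was at 34.5, 34.0 and 39.7 CPM in IgE+BSA and at 34.4, 35.0 and 36.6 CPM with luteolin. The groups overlapped, and the log2 fold change was -0.03, with a 95% interval from -0.20 to 0.14 and a sign that turned to 0.09 under library size alone and 0.05 with upper-quartile factors.

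The adaptors moved in different directions. Gab2, the adaptor that brings in phosphoinositide 3-kinase, was at 365, 379.9 and 352 CPM in IgE+BSA and at 264, 262 and 289 CPM with luteolin. No libraries overlapped, and its log2 fold change of -0.43 (SE 0.06, edgeR adjusted p = 2.11e-05) was close in size to that of Fcer1a, which was the farther from 0 under library size alone (0.53 against -0.31). Lat, the scaffold for PLCG1, was at 244, 259 and 249 CPM in IgE+BSA and at 309, 284 and 268 CPM with luteolin. It was higher with luteolin in each library, by 0.20 on the log2 scale (SE 0.06, edgeR adjusted p = 0.0151). Lat2, the related scaffold also called NTAL, was at 366, 355 and 392 CPM in IgE+BSA and at 344, 350.1 and 334 CPM with luteolin. The luteolin libraries were all below, with a log2 fold change of -0.11 (95% interval -0.23 to 0.01, edgeR adjusted p = 0.119) that became 0.00 under library size alone. Per length, Lat2 stood at 1.45 to 1.66 times Lat in IgE+BSA and at 1.17 to 1.32 times Lat with luteolin, with no overlap. In Control it stood at 1.17 to 1.55 times Lat.

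Plcg1, the phospholipase that makes inositol trisphosphate, was at 306, 313 and 317 CPM in IgE+BSA and at 349.9, 338 and 343 CPM with luteolin. All luteolin libraries were above, and the log2 fold change was 0.14 (SE 0.05, edgeR adjusted p = 0.0362). Of its merged exons, 525 bases overlap genes on the opposite strand, mainly Zhx3, which was at 23.0 CPM in IgE+BSA and 18.1 with luteolin. Lat2 shares 952 bases of exon with Rfc2 on the opposite strand, at 407 and 434 CPM. Whether the counting used strand is not given in the sources used here, although the kit keeps it, so reads of these pairs may not have been told apart.

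Changes with luteolin went with gene length across all genes. The median log2 fold change was 0.21 in genes with up to 1000 bases of merged exon and -0.18 in genes over 8000 bases, and the 10 genes run from 874 bases for Fcer1g and 998 for Fcer1a to 9362 for Syk. With a length-dependent offset in each library, a fit chosen after seeing the data, Fcer1a (0.22, edgeR adjusted p = 0.000596), Ms4a2 (0.20, 0.00279) and Plcg1 (0.24, 0.000998) remained higher and Gab2 (-0.39, 1.35e-05) remained lower on the log2 scale. Fcer1g (0.08, edgeR adjusted p = 0.192), Lat (0.09, 0.175) and Syk (-0.03, 0.65) were then no longer called, and Lat2 was lower (-0.22, 0.0036), so that 5 genes were called where the same fit called 35.3% of all genes. What the dependence on length comes from was not tested. Leaving out 1 library at a time kept Fcer1a, Ms4a2, Fcer1g and Gab2 past the threshold in all 6 fits, while Lat was lost without IgE+BSA replicate 1 or without luteolin replicate 1 or 2 (edgeR adjusted p = 0.0501 to 0.123), Plcg1 without IgE+BSA replicate 1 or 3 or luteolin replicate 1 or 2 (0.0593 to 0.142), and Syk without IgE+BSA replicate 3 or luteolin replicate 1 or 2 (0.11 to 0.17). In one fit over all 9 libraries, whose spread includes that of Control, Ms4a2 alone was called, against 9.46% of all genes, with Fcer1a at 0.41 and Gab2 at -0.43 on the log2 scale (edgeR adjusted p = 0.105 and 0.0834).

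**Figure D3:**
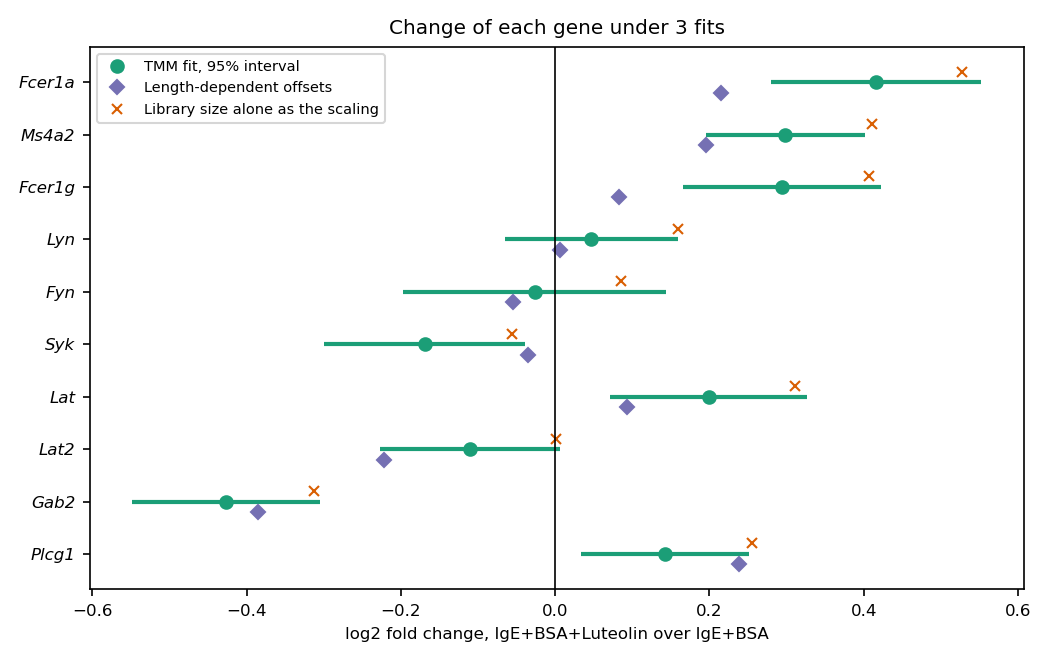
Log2 fold change of each gene, IgE+BSA+Luteolin over IgE+BSA (n = 3 each), from the TMM fit with its 95% interval, from the fit with length-dependent offsets and from the fit with library size alone. Gab2 and Syk lie left of 0 and Fcer1a, Ms4a2, Fcer1g, Lyn, Lat and Plcg1 right of 0 under all 3, while Fyn and Lat2 change side with library size alone, and with the length offsets Fcer1a, Ms4a2, Fcer1g, Lyn, Lat, Syk and Gab2 lie nearer to 0 than in the TMM fit.

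Markers of other cells were counted in the luteolin comparison as well, beside the 18.1% of all genes called higher and the 21.9% called lower. Both of the myeloid calgranulin genes S100a8 and S100a9, 2 of 5 neutrophil markers tested, were higher with luteolin (log2 fold changes 0.43 and 0.32, edgeR adjusted p = 0.00236 and 0.00164), as were 3 of 4 basophil markers, Mcpt8, Prss34 and Cd200r3 (0.21, 0.24 and 0.20), whose sum was 1448 to 1506 CPM in IgE+BSA and 1612 to 1757 CPM with luteolin. In the other direction, 1 of 3 eosinophil markers tested, Siglecf (-1.07, edgeR adjusted p = 0.000118), and 1 of 4 macrophage markers tested, Cd14 (-0.44, edgeR adjusted p = 0.0023), were lower. The eosinophil markers summed to 25.5 to 29.2 CPM in IgE+BSA and 21.95 to 29.5 CPM with luteolin, and the macrophage markers to 355 to 382 and 353 to 381 CPM. Basophils also carry the IgE receptor and neutrophils the gamma chain. Of the 11 mast cell markers, 4 were higher (the protease genes Cpa3, Cma1, Tpsb2 and Mcpt4) and 3 lower (Tpsab1, Hdc and Mitf), and their sum was 59686 to 65493 CPM in IgE+BSA and 69211 to 79099 CPM with luteolin. The part of these cells in the receptor transcripts was not tested.

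Other genes of the pathway were described by lists, beside the 18.1% of all genes that were higher with luteolin and the 21.9% that were lower. Of 6 other Src, Tec and Csk family kinases described, 1 fell and 1 rose: Tec fell by 0.42 on the log2 scale (edgeR adjusted p = 3.18e-05) from 88.7 to 66.0 CPM, and Btk rose by 0.17 (edgeR adjusted p = 0.0174) from 276 to 309.5 CPM. Of 10 adaptors, 5 fell, led by Lcp2, which encodes SLP-76, the partner of LAT (-0.76, edgeR adjusted p = 5.18e-09, 941 to 555 CPM), and 2 rose, Nck1 by 0.33 and Grb2 by 0.25. Of 12 genes of the phosphoinositide and protein kinase C branch, 6 fell, led by the inositol trisphosphate kinase gene Itpkb (-0.85, edgeR adjusted p = 7.06e-08), and Prkcd rose by 0.14. Of 8 genes for guanine nucleotide exchange and Rac, 2 fell, Sos1 by 0.39 and Sos2 by 0.27 on the log2 scale.

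Of 14 genes of a list drawn up for brakes on the receptor, which also holds phosphatases known to promote signalling as well (Ptprc, Ptprj and Ptpn11), 8 were lower with luteolin, 1 was higher and 5 were not called, beside the same 21.9% lower and 18.1% higher of all genes. Rabgef1, a Rab5 exchange factor that limits receptor signalling, fell by 1.99 on the log2 scale (edgeR adjusted p = 9.92e-13) from 377 to 94.5 CPM, Sla fell by 0.83 and Ptpn22 by 0.68, and Dok3 rose by 0.37. Ptprj, which was named for its role after its values were seen and is not among the largest changes of the list, fell by 0.24 (edgeR adjusted p = 0.0112). Of 3 other Fc receptor genes tested, Fcgr3 rose by 0.28 and Fcgr2b by 0.17 (edgeR adjusted p = 0.00213 and 0.0297). These 2 are similar in sequence, and how reads matching both were counted is not given in the sources used here. The list medians were -0.04 for kinases, -0.26 for adaptors, -0.20 for the phosphoinositide branch, -0.02 for exchange factors, -0.21 for brakes and 0.20 for Fc receptors, beside 0.09 for the 10 genes and 0.02 for all genes. With length offsets the calls went from 2 to 1 among kinases, from 7 to 3 in the phosphoinositide branch, from 2 to 1 among exchange factors, from 2 to 1 among Fc receptors and from 9 to 8 among brakes. The count for adaptors was 7 in both fits, and the fit with length offsets called 35.3% of all genes.

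**Figure D4:**
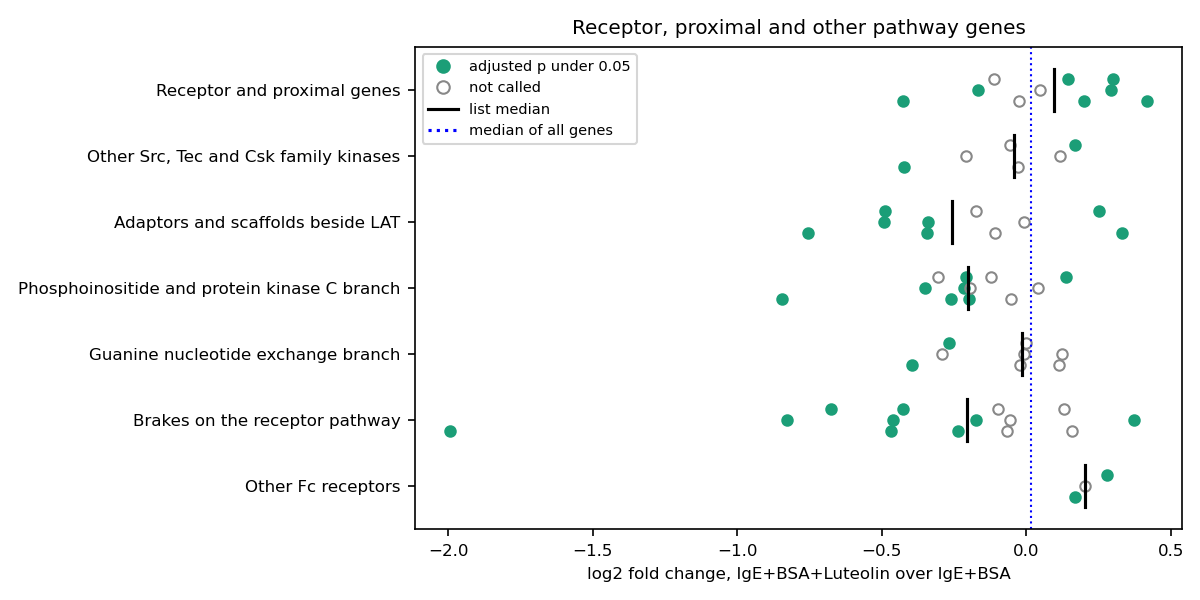
Log2 fold change of each tested gene, IgE+BSA+Luteolin over IgE+BSA (n = 3 each), by gene list, with filled points for genes past the threshold, a bar at each list's median and a dotted line at the median of all genes. Rabgef1, among the brakes, lies at -1.99, beyond the range of the 10 receptor and proximal genes.

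The comparison of IgE+BSA with Control asks what the challenge itself changed. None of the 10 genes was called: 0 by edgeR, by DESeq2 and by limma, and 0 had an unadjusted edgeR p under 0.05, where 3.27% of all genes were called, 2.25% higher and 1.02% lower. Those calls were 260 higher and 118 lower, or 173 and 295 under library size alone and 199 and 181 under upper quartiles. Gab2 and Lat2 lay above Control in each IgE+BSA library. Over all genes, 28.7% did not overlap, 16.7% above and 12.1% below Control. Gab2 was at 227, 316 and 336 CPM in Control, with a log2 fold change of 0.32 (95% interval -0.04 to 0.68, edgeR adjusted p = 0.291). Lat2 was at 330.2, 308 and 316 CPM in Control, with a log2 fold change of 0.22 (95% interval -0.01 to 0.45, edgeR adjusted p = 0.266). For the other 8 genes the libraries overlapped, and the intervals reached as wide as -0.56 to 0.51 for Fcer1g. For Lat, the value of 0.04 turned to -0.13 under library size alone and to -0.06 with upper-quartile factors, where the median of all genes moved from 0.02 to -0.15 and -0.08, so that relative to it Lat stayed at 0.02 to 0.03.

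The calls against Control turned on Control replicate 1. Without it, Control replicates 2 and 3 alone stood for the Control group. In that fit 45.0% of all genes were called, 22.6% higher and 22.4% lower, and 7 of the 10 genes with them, 3 higher and 4 lower. Fcer1g (0.25, edgeR adjusted p = 0.0101), Lat (0.17, 0.0498) and Lat2 (0.20, 0.0302) were higher in IgE+BSA on the log2 scale, and Ms4a2 (-0.17, 0.0482), Lyn (-0.23, 0.00907), Fyn (-0.28, 0.037) and Syk (-0.19, 0.0444) were lower. With length offsets added, Lat (0.14, edgeR adjusted p = 0.0674) and Syk (-0.13, 0.0981) were no longer called. Fcer1a was not called either way, at -0.13 with all libraries and -0.01 without Control replicate 1. The neutrophil markers summed to 6.96 and 5.64 CPM in Control replicates 2 and 3, against 125 to 136 CPM in IgE+BSA. The basophil markers summed to 1717 and 1653 CPM there, against 1448 to 1506 CPM in IgE+BSA. The part of other cells in the calls without Control replicate 1 was not tested. Among the other pathway genes, Lcp2 (0.69, edgeR adjusted p = 0.0143), Itpkb (0.67, 0.0394) and Rabgef1 (1.09, 0.00459) were higher in IgE+BSA with all libraries, and without Control replicate 1 they were at 0.62, 0.53 and 0.99 (edgeR adjusted p = 1.14e-05, 0.00023 and 1.3e-06). No other gene described from the 6 lists was called with all libraries, and with any other single library left out the adaptors and the phosphoinositide branch held 0 calls and the brakes 1. Without that library 3 of 6 kinases were higher and 1 lower, 1 and 5 of 10 adaptors, 1 and 2 of 12 phosphoinositide genes, 3 and 1 of 8 exchange genes, 5 and 3 of 14 brakes, and 1 of 3 Fc receptor genes was lower. The values of Lcp2, Itpkb and Rabgef1 with luteolin against IgE+BSA are those given above, and both comparisons use the same IgE+BSA libraries.

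IgE+BSA+Luteolin was also set against Control. Again 0 of the 10 genes were called by edgeR, DESeq2 or limma and 0 had an unadjusted edgeR p under 0.05, beside 3.04% of all genes, 0.285% higher and 2.75% lower. Ms4a2 and Lat2 lay above all Control libraries, where 28.5% of all genes did not overlap, 13.6% above and 14.9% below, with log2 fold changes of 0.21 (95% interval -0.01 to 0.44, edgeR adjusted p = 0.242) and 0.10 (-0.11 to 0.31, 0.491). The receptor chain Fcer1a differed by 0.28 (95% interval -0.10 to 0.66) and Fcer1g by 0.27 (-0.25 to 0.79). For Plcg1 the value of 0.04 turned to -0.02 under library size alone, with the median of all genes at 0.01 and -0.05.

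Without Control replicate 1, 60.0% of all genes were called, 29.9% higher and 30.1% lower, and 7 of the 10, 4 higher and 3 lower. Fcer1a (0.44, edgeR adjusted p = 0.000169), Ms4a2 (0.16, 0.0263), Fcer1g (0.58, 5.32e-06) and Lat (0.41, 0.000166) were then higher with luteolin than in Control, and Fyn (-0.27, 0.0195), Syk (-0.32, 0.000922) and Gab2 (-0.27, 0.0028) lower. With length offsets added, Ms4a2 (0.04, edgeR adjusted p = 0.545) and Syk (-0.14, 0.0562) were no longer called, and Plcg1 (0.22, 0.00557) and Lyn (-0.17, 0.0199) were. Control replicates 2 and 3 alone stood for Control in these fits. Their neutrophil markers summed to 6.96 and 5.64 CPM, against 146 to 172 with luteolin, and mast cell markers to 54051 and 55102, against 69211 to 79099. Basophil markers overlapped, at 1717 and 1653 against 1612 to 1757 CPM. The part of these differences in the calls was not tested. Of the other pathway genes, Rabgef1 (-0.91, edgeR adjusted p = 0.0106, all libraries in the fit) was lower with luteolin, and it was at -0.97 (edgeR adjusted p = 4.22e-09) without Control replicate 1, but with any other single library left out no brake was called. Without that library 4 of 6 kinases were higher and 2 lower, 1 and 4 of 10 adaptors, 1 and 7 of 12 phosphoinositide genes, 2 and 1 of 8 exchange genes, 1 and 8 of 14 brakes, and 2 and 1 of 3 Fc receptor genes.

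**Figure D5:**
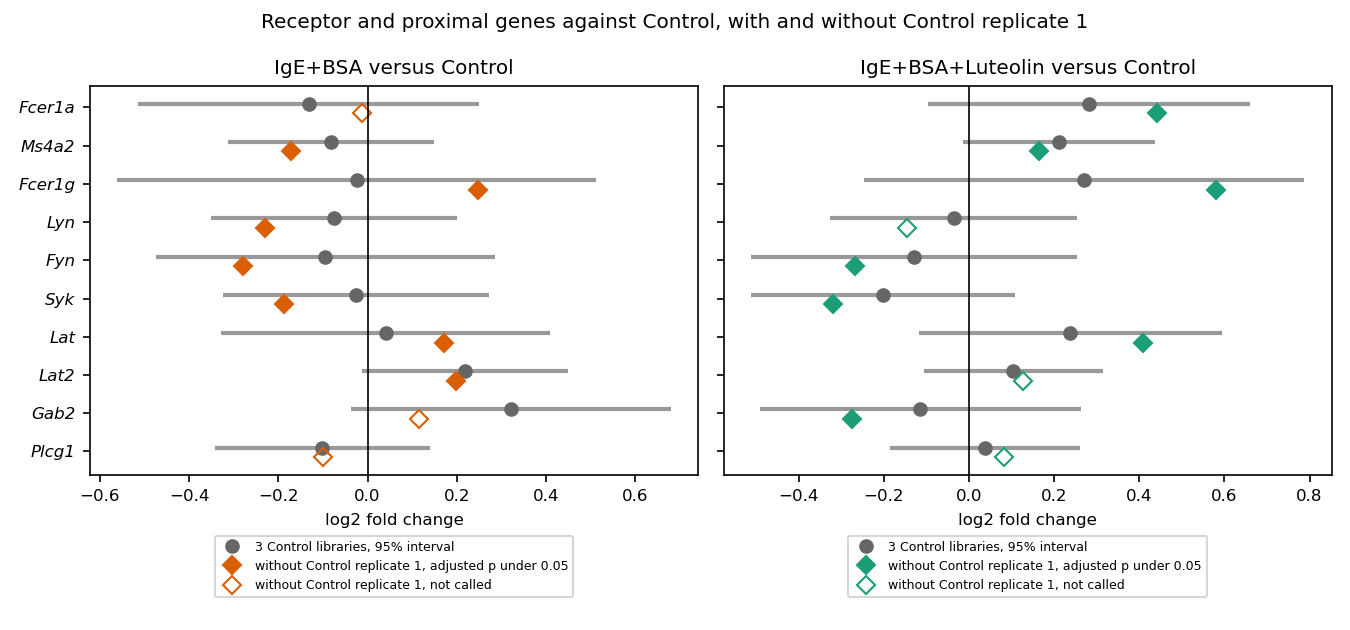
Log2 fold change of each gene against Control for IgE+BSA (left) and IgE+BSA+Luteolin (right), with all 3 Control libraries (circle, 95% interval) and without Control replicate 1 (diamond, filled where the adjusted p is under 0.05). The intervals with all libraries include 0 for each gene, and 7 of 10 diamonds are filled on each side.

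The genes whose log2 CPM followed the receptor chains most closely over the 9 libraries were Cr1l, Mdh1 and Tma7 for Fcer1a (Pearson r 0.987, 0.985 and 0.985), Slc35a5, Tvp23b and Man1b1 for Ms4a2 (0.979, 0.969 and 0.955) and Nsmce2, Flot1 and Cd63 for Fcer1g (0.997, 0.994 and 0.993). Between the chains themselves r was 0.895 for Fcer1a and Fcer1g, 0.555 for Fcer1a and Ms4a2 and 0.250 for Ms4a2 and Fcer1g. These are descriptions over points that share their groups and library scaling, and Control replicate 1 is one of the 9.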

How the data were processed

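RNA was measured in 9 BMMC libraries. The authors prepared stranded mRNA libraries, trimmed reads with HTStream, aligned them with STAR 2.7.0f to mm10 and deposited unnormalized counts for each Ensembl gene, per the labels and the file headers, which name htseq-count. The annotation release and strand setting are not given in the sources used here. Symbols, positions and merged exon lengths came from GENCODE on GRCm38, the same build, and matched 47224 of 47643 rows. Promoters came from a RefSeq table, in which 7 of the 10 genes were matched.

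Groups followed the labels. Genes whose median CPM exceeded 1 were tested with edgeR 4.0.16 in R 4.3.3 (quasi-likelihood test, two-sided, TMM factors, Benjamini-Hochberg adjustment over all genes tested, threshold 0.05) on the 6 libraries of each comparison, and intervals are 95% from the fit. The fit was tested on simulated data with the same spread for all genes. They held no outlying library, no difference in cells and no trend with length, so they cannot judge the fits where these occur. Alternatives were DESeq2 1.42.0, limma 3.58.1 (log2 CPM, prior count 2), other scalings and filters, 1 fit over 9 libraries, the replicate number as a block and each library left out in turn. Length-dependent offsets were added after seeing the data, and 19 tested genes had no length. Depth was 9515004 to 24605689 counts per library. The 10 genes and the gene lists were chosen with earlier results of these data known. One gene of the kinase list is not reported here. The text names all 10, up to 3 called genes per list and direction by size of change (and Ptprj, added after its values were seen), the 3 closest correlates of each receptor chain and the markers called with luteolin against IgE+BSA. Duplicate libraries were checked by chi-square per degree of freedom, lowest 3.82.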

Additional observations from a re-analysis of the deposited data

How the results depend on the processing

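With luteolin against IgE+BSA, Fcer1a, Ms4a2 and Gab2 were called under every alternative run, except Fcer1a and Gab2 in the fit over all 9 libraries, which called 1093 genes and 1 of the 10. Leaving out 1 library gave 3242 to 5082 genes and 4 to 7 of the 10, with 4 without luteolin replicate 1 or 2. Fyn changed sign under library size alone (0.086), upper-quartile factors (0.050) and in the range without 1 library (-0.070 to 0.047), and Lat2 under library size alone (0.0014).

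Against Control, the number of calls rose without Control replicate 1 and fell without any other library. For IgE+BSA, 378 genes became 1227 with DESeq2, 618 without a filter and 1105 with all 9 libraries, and 90 to 5207 with 1 library left out, the 5207 without Control replicate 1, and 90 to 137 without any other library. The 10 genes gave 0 to 7. With length offsets and no Control replicate 1 it was 5402 genes and 5 of the 10. For luteolin, 351 became 1379, 811 and 1251 with the same alternatives, 654 with length offsets, 2 to 6931 with 1 library left out, the 6931 without Control replicate 1 and 2 to 47 without any other, and 6873 genes and 7 of the 10 with length offsets and no Control replicate 1. The 10 genes gave 0 to 7 with 1 library left out. The causes were not tested.

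Signs of values not called in the TMM fit with all libraries turned for IgE+BSA against Control. Fcer1g turned to 0.032 under the replicate block, 0.031 with limma, 0.014 without a filter and 0.089 with length offsets. It was 0.23 with those and no Control replicate 1, and -0.18 to 0.25 without 1 library. Fcer1g was called at 0.23 and at 0.25, the value without Control replicate 1. Lat turned to -0.13 under library size alone and -0.059 with upper-quartile factors, and ranged from -0.061 to 0.17. Syk turned to 0.028 without a filter and ranged from -0.19 to 0.055, and Fyn from -0.28 to 0.040. For luteolin against Control, Plcg1 turned to -0.019 under library size alone and ranged from -0.0066 to 0.081, Lyn turned to 0.034 without a filter and ranged from -0.15 to 0.022, Fyn ranged from -0.27 to 0.017, and Lat2 was -0.0098 with length offsets and no Control replicate 1.

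Same-numbered libraries did not deviate together in each pair (r from -0.26 to 0.31), and not every library correlated best with its own number, so the replicate number was not taken as pairing. As a block it gave 144 genes for IgE+BSA against Control, 5582 for luteolin against IgE+BSA with Lat2 also called (-0.11, edgeR adjusted p = 0.0488), and 212 for luteolin against Control.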
